A study of Homo sapiens with 8 samples.

Results

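The miRNA described here is hsa-miR-375, 1 of the 1780 mature miRNAs counted in the 8 small RNA libraries of this series. DLD1 and HT29, established cell lines from human colorectal adenocarcinomas, were each grown for 6 days either as an adherent monolayer (2D) or as multicellular spheroids (MCS) in agarose-coated round-bottom wells, with 2 replicate libraries per cell line and culture. DLD1 cells were kept in RPMI medium and seeded at 35000 cells per flask for 2D and 7000 per well for MCS, whereas HT29 cells were kept in DMEM and seeded at 100000 and 3500. The small RNA kit was version 3 for DLD1 and version 2 for HT29, so that cell line, medium and kit cannot be told apart. hsa-miR-375 was chosen on its measured counts in these same libraries, because it was already known to be higher in MCS in both cell lines. Its own difference between MCS and 2D is therefore described without a test and without a p-value.

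As background, a miRNA guides the silencing complex to messenger RNAs that pair with its seed, the bases near its 5′ end. miR-375 is best known from the endocrine cells of the pancreatic islet, where it restrains insulin secretion, and it is also abundant in the secretory cells of the gut mucosa. Messenger RNAs described as its targets include those of PDPK1, JAK2 and YAP1. No messenger RNA was measured in these libraries. The counted strand is shown first because the seed sets which messenger RNAs it can pair with, and the opposite arm and the hairpin are shown to place it. The sequences are those of RefSeq, written 5′ to 3′, with the seed (bases 2 to 8) in capitals for the mature strands and the counted strand in capitals for the hairpin.
hsa-miR-375, named miR-375-3p by RefSeq: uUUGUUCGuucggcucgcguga
miR-375-5p, the opposite arm: gCGACGAGccccucgcacaaacc
MIR375 hairpin: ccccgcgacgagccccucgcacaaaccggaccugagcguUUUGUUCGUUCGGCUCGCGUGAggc

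Of the 2370 mature human miRNAs in the RefSeq table, 0 others had the same bases 2 to 8, and 1, miR-6739-3p, had the same bases 2 to 7. The nearest mature sequence, miR-2113, differed from miR-375 by 8 single-base edits. The 22 bases of the mature strand hold 4 CG dinucleotides, and 1.73% of the mature miRNAs hold at least as many. The sequence occurs at a single place in GRCh37, on the minus strand of chromosome 2 from 219866370 to 219866391, inside the hairpin from 219866367 to 219866430. In the GENCODE annotation this hairpin lies between genes, 8223 bases from CRYBA2 and 1138 bases from CFAP65, both on the same strand, and 507 bases from an unnamed long non-coding RNA gene on the other strand (ENSG00000224090), and it overlaps no annotated host gene. With 0 other miRNA genes within 10 kb, it belongs to no polycistronic cluster by the distance used in the study. The tables listed 1 arm, so the opposite arm is not analysed here.

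The libraries held 10495634 to 26211524 counts on named miRNAs. In HT29 cells miR-10a-5p, an abundant miRNA, took 47.3% and 38.5% of the counts in replicate 1 of 2D and MCS, but 10.6% and 6.57% in replicate 2. In DLD1 cells its share was between 15.2% and 19.0% in all 4 libraries. Shares of the library total of any other HT29 miRNA, miR-375 included, move with this difference between the replicates, and the levels below are therefore given on more than 1 scale.

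In DLD1 cells miR-375 was counted 37275 and 60426 times in 2D (replicates 1 and 2) and 84302 and 80888 times in MCS. Its share of the miRNA counts was 0.236% (95% Wilson interval 0.233 to 0.238) and 0.237% (0.235 to 0.239) in 2D, against 0.467% (0.463 to 0.470) and 0.395% (0.393 to 0.398) in MCS. These intervals cover counting error only and are narrower than the differences between replicates in MCS. After scaling by upper quartile factors, the normalization named in the study, the 2D libraries had 2125 and 2032 counts-per-million (CPM) and the MCS libraries 4505 and 5299.9. Both MCS libraries thus lay above both 2D libraries, as was the case for 45.4% of the 346 miRNAs tested in DLD1. Its mean was 2079 ± 66.2 (SD, n = 2) normalized CPM in 2D and 4902 ± 562 (SD, n = 2) in MCS. The fitted log2 fold change was 1.24 (standard error 0.25). Libraries from whole cultures do not tell whether more cells held miR-375 or each cell held more of it.

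In HT29 cells it was counted 3140 and 16847 times in 2D and 16926 and 32622 times in MCS. The share was 0.0299% (95% Wilson interval 0.0289 to 0.0310) and 0.0643% (0.0633 to 0.0653) in 2D, against 0.158% (0.155 to 0.160) and 0.190% (0.188 to 0.192) in MCS. The 2D replicates differed 2.15-fold on the scale of library totals, against 1.01-fold in DLD1. With upper quartile factors the 2D libraries had 573 and 387 normalized CPM and the MCS libraries 2125 and 1221. On that scale replicate 1 was the higher library of both cultures, whereas on library totals it was the lower one. In HT29 cells both MCS libraries again lay above both 2D libraries, as did those of 17.9% of the 301 tested miRNAs. Its mean was 480 ± 131 (SD, n = 2) normalized CPM in 2D and 1673 ± 639 (SD, n = 2) in MCS. The fitted log2 fold change was 1.80 (standard error 0.51).

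**Figure D1:**
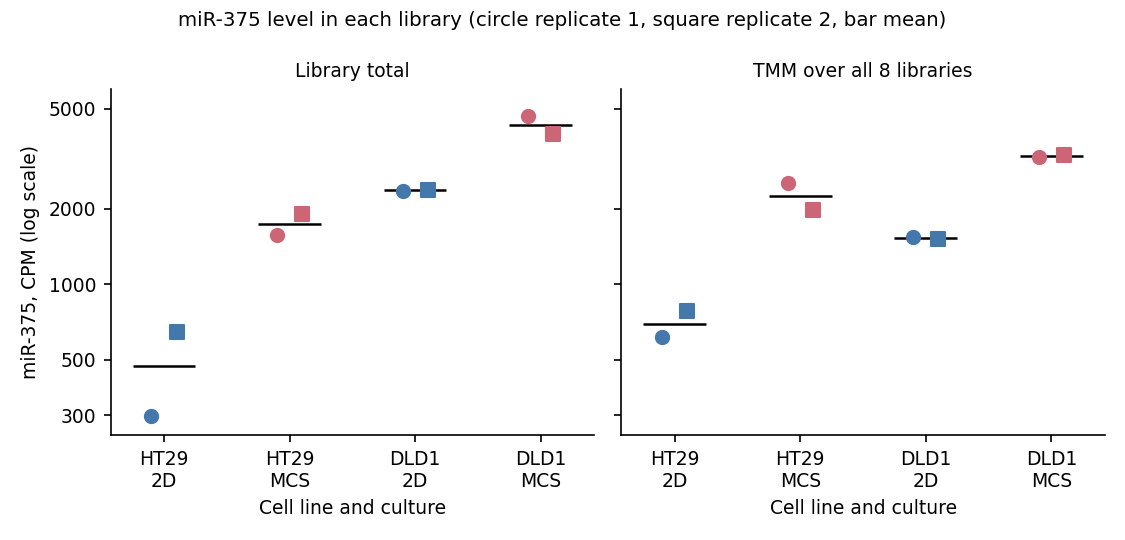
CPM of miR-375 on a log scale (y axis) in each of the 8 libraries by cell line and culture (x axis), scaled by library totals (left) and by TMM factors over all 8 libraries (right); blue is 2D, red MCS, circles are replicate 1, squares replicate 2 and bars the mean of 2 libraries. On both scales HT29 2D is lowest and DLD1 MCS highest, while HT29 MCS and DLD1 2D change places.

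The ratio of MCS to 2D was then followed through 7 scalings of the same counts, namely the upper quartile over all miRNAs, TMM, RLE, library totals, the upper quartile over the tested miRNAs, library totals without miR-10a-5p, and the geometric mean of the reference miRNAs miR-16-5p, miR-25-3p, miR-93-5p, miR-103a-3p and miR-191-5p. Of these references miR-191-5p was itself higher in DLD1 MCS. Its fitted log2 fold change with upper quartile factors was 0.77 (standard error 0.25), against 0.035 to 0.303 for the others. In DLD1 cells the ratio of the means ran from 1.72 with the upper quartile over tested miRNAs to 2.36 with the upper quartile over all miRNAs. With TMM factors the libraries had 2212 and 2242 CPM in 2D and 4530.1 and 4589 in MCS, a ratio of 2.05. In HT29 cells the ratio of the means ran from 3.03 to 3.69, and with TMM factors the 2D libraries had 488 and 475 CPM and the MCS libraries 1934 and 1285, a ratio of 3.34. The HT29 2D libraries, which differed most on library totals, thus came within 1.03-fold of each other with TMM factors, whereas the MCS libraries differed 1.51-fold.

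Within replicate number 1 the DLD1 ratio was 2.12 with upper quartile factors and 1.98 with library totals, and within number 2 it was 2.61 and 1.67. In HT29 cells the corresponding ratios were 3.71 and 5.27 within number 1 and 3.15 and 2.95 within number 2. Leaving the miR-10a-5p counts out of the totals gave HT29 ratios of 4.52 within number 1 and 2.83 within number 2. HT29 was higher within number 1 than within number 2 on all 7 scales, while in DLD1 the order of the numbers depended on the scale. When every MCS library was set against every 2D library of its cell line on every scale, the 28 ratios ran from 1.51 to 2.61 in DLD1 and from 1.68 to 6.35 in HT29. All 28 were at least 1.5 in each cell line, and 16 in DLD1 and 27 in HT29 were at least 2. These are the same library pairs rescaled, not separate observations, and miR-375 was chosen on this contrast. Both MCS libraries lay above both 2D libraries for 26% to 45.4% of all tested miRNAs in DLD1, depending on the scale. In HT29 this share was 10.6% to 17.9%. The lowest ratio of each line came with the upper quartile over tested miRNAs.

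**Figure D2:**
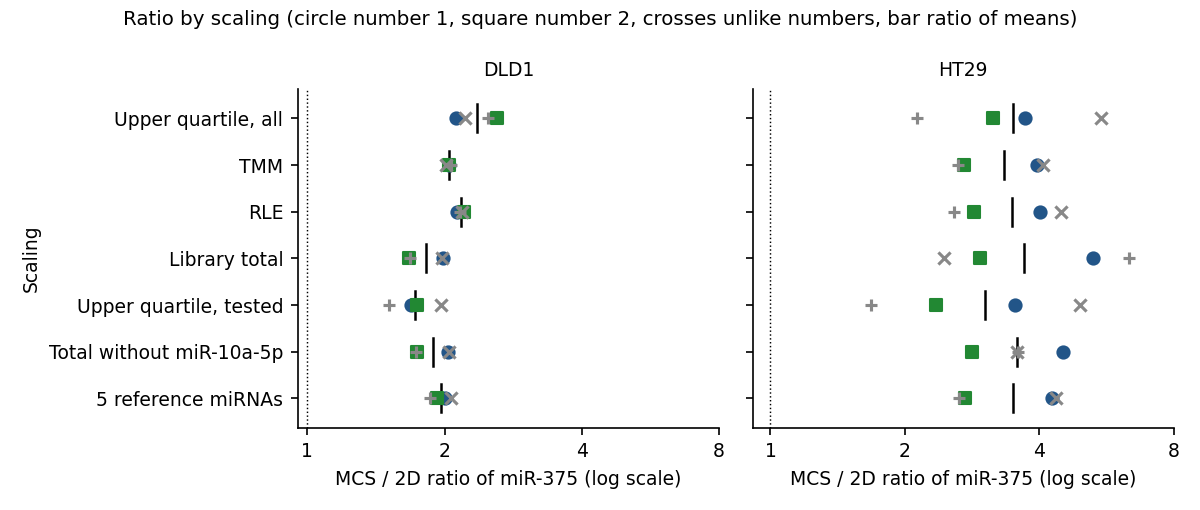
Ratio of miR-375 in MCS to 2D on a log scale (x axis) under 7 scalings (y axis) in DLD1 (left) and HT29 (right); circles are replicate number 1, squares number 2, crosses the pairs of unlike numbers and bars the ratio of the means. No pair lies at or below 1, and the spread of the pairs is wider in HT29 (1.68 to 6.35) than in DLD1 (1.51 to 2.61).

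A comparison inside each library avoids the choice of a scale. The count of miR-375 was divided by that of each of the other tested miRNAs in the same library. In DLD1 the quotient exceeded that of either 2D library in each MCS library for 276 of 345 miRNAs (80.0%), lower for 32, and overlapping for 37, with a median change of 1.02 on the log2 scale. In HT29 it was higher for 239 of 300 (79.7%), lower for 3 and overlapping for 58, with a median change of 1.72. The quotient to each of the 5 reference miRNAs was higher in both MCS libraries in both cell lines, by 0.46 (miR-191-5p) to 1.21 (miR-25-3p) on the log2 scale in DLD1 and by 1.27 (miR-16-5p) to 2.10 (miR-25-3p) in HT29. Over the 249 other miRNAs tested in both lines, it was higher in both for 169 (67.9%). The reverse held in both lines for 1 miRNA, miR-1246, an entry whose normalized level was 50.5 and 55.5 CPM in DLD1 2D against 734 and 413 in MCS. The others that gained on miR-375 in HT29 were scarce there, miR-150-5p with 12.0 and 6.83 normalized CPM in 2D against 51.6 and 40.9 in MCS, and miR-4485-3p with 7.30 and 6.39 against 45.9 and 42.8. These names follow from the counts and were picked after their values were seen. The shares above follow in part from the choice of miR-375 as higher in MCS in both lines. Such shares were not computed for other miRNAs.

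The cell lines were set side by side without a test, since the kit differed with them. On library totals the levels followed the order HT29 2D (471 ± 243 CPM), HT29 MCS (1737 ± 229), DLD1 2D (2364 ± 10.4) and DLD1 MCS (4309 ± 504), each as mean and SD of n = 2, and no library of one group overlapped the next. With TMM factors over all 8 libraries the order was HT29 2D (697 ± 117 CPM), DLD1 2D (1527 ± 24.9), HT29 MCS (2258 ± 397) and DLD1 MCS (3250.2 ± 29.9). The middle groups thus changed places with the scale. DLD1 exceeded HT29 in 2D by 5.02-fold on library totals and 2.19-fold with TMM factors, and in MCS by 2.48-fold and 1.44-fold. On both scales the gap between the lines was smaller in MCS than in 2D. The log2 fold change was 0.56 (standard error 0.56) larger in HT29, a difference that was not tested because miR-375 was chosen on these contrasts.

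By rank, miR-375 was among the more abundant miRNAs of each library. In the DLD1 2D replicates it was number 46 of 1083 and 45 of 1191 miRNAs with a count. In DLD1 MCS it was number 39 of 1089 and 41 of 1157. For HT29 it moved from 74 of 1061 and 89 of 1438 in 2D to 50 of 1087 and 58 of 1368 in MCS. The neighbours in rank changed accordingly, from miR-15b-5p just below it in both DLD1 2D libraries to miR-3529-3p and miR-10a-3p in MCS. For each read of miR-375, miR-10a-5p had 68.8 and 64.2 in DLD1 2D and 40.3 and 48.1 in MCS. In HT29 cells it had 1579.5 and 165 for the 2D libraries against 245 and 34.6 for MCS, so that this quotient was lower in MCS within both replicate numbers while differing more between the numbers than between the cultures.

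**Figure D3:**
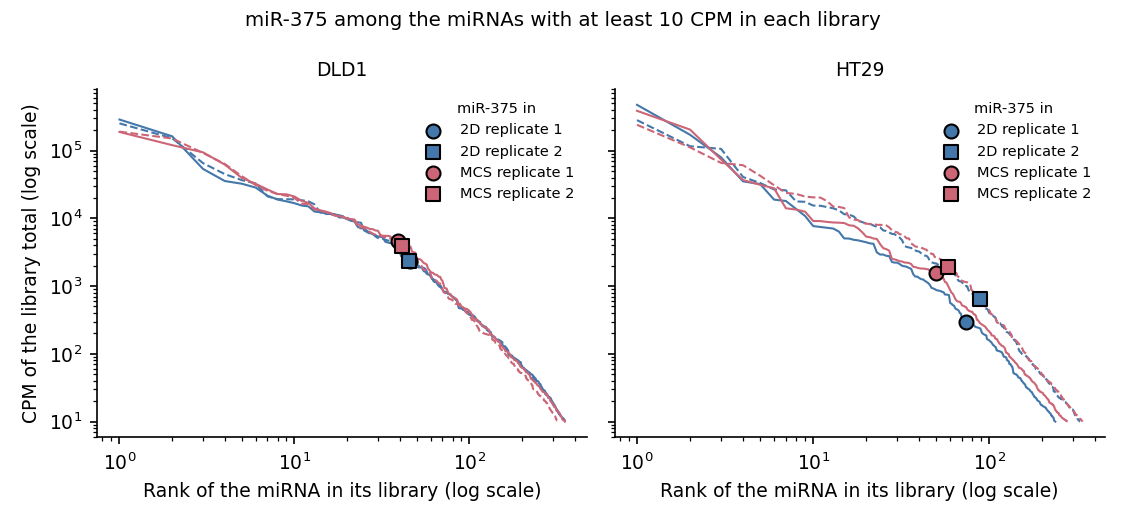
CPM of the library total (y axis, log scale) against rank (x axis, log scale) for miRNAs with at least 10 CPM in DLD1 (left) and HT29 (right); solid lines are replicate 1, dashed lines replicate 2, blue 2D and red MCS, and the marked points are miR-375. In HT29 the points move up and to the left from ranks 74 and 89 in 2D to 50 and 58 in MCS, and in DLD1 from 46 and 45 to 39 and 41.

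Ordered by fitted log2 fold change, miR-375 stood at place 47 of 346 miRNAs in DLD1, between miR-3653-5p (1.25) and miR-3607-5p (1.21), and at place 8 of 301 in HT29, between miR-142-5p (1.82) and miR-301a-3p (1.70). Among miRNAs with a mean of at least 300 normalized CPM in both cultures, it was at place 14 of 103 in DLD1 and place 2 of 91 in HT29. These places are descriptions of the contrast on which it was chosen.

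Other epithelial miRNAs were then examined with edgeR's quasi-likelihood test. A miRNA was called when it changed 1.5-fold or more with an adjusted p-value (Benjamini-Hochberg, over all tested miRNAs) below 0.05. The list holds 9 miRNAs, the 5 of the miR-200 family, which represses the ZEB factors and maintains the epithelial state, miR-192-5p, miR-194-5p and miR-215-5p, which mark the differentiated gut, and miR-203a-3p, which promotes the differentiation of squamous epithelium. All 9 were above 10 CPM in every library and together took 10.1% to 18.7% of the counts in DLD1 and 7.38% to 28.1% in HT29. The list was chosen with earlier results of these data known. Its calls and p-values therefore describe these libraries and are no independent test of the list. The study placed miR-200a, miR-200b and miR-429 in a polycistronic cluster, and likewise miR-200c with miR-141 and miR-192 with miR-194-2. Calls of members that share a cluster are not separate. In DLD1 cells 7 of the 9 were called higher and 0 lower in MCS, against 29.8% and 11.6% of all tested miRNAs (41.3% in either direction), and the median log2 fold change was 1.26 against 0.23 over all. The balance of calls depends on the scale, since 72.0% of the 143 calls were higher here but 42.0% with library totals and 34.5% with the upper quartile over tested miRNAs. Of the epithelial list 5 to 7 were called higher and 0 lower on all 7 scales, while miR-215-5p was below 0 on all scales but the first. The largest was miR-192-5p, with 737 and 645 normalized CPM in 2D and 3047 and 3960.2 in MCS, a log2 fold change of 2.34 (standard error 0.25, adjusted p = 6.15e-19). For miR-194-5p the log2 fold change was 2.13 (standard error 0.25, adjusted p = 5.28e-15), and for miR-203a-3p 2.06 (standard error 0.27, adjusted p = 8.03e-13). The called members of the miR-200 family, miR-200a-3p, miR-200b-3p, miR-200c-3p and miR-141-3p, ranged from 0.98 to 1.28. The miRNAs not called were miR-429, at 0.56 (adjusted p = 0.0566), and miR-215-5p, at 0.05 (adjusted p = 0.886). Without replicate 2 of DLD1 2D, 4 of the list were called, namely miR-192-5p, miR-194-5p, miR-200a-3p and miR-203a-3p, and the same 4 were called in a fit of all 8 libraries.

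In HT29 cells 0 of the 9 were called by edgeR's quasi-likelihood test, where 0% of all tested miRNAs were, and 1 had an unadjusted p-value under 0.05, against 12 of all 301. This was miR-215-5p, with 380 and 360 normalized CPM in 2D and 2399 and 1062 in MCS, a log2 fold change of 2.23 (standard error 0.56, adjusted p = 0.642). DESeq2 called it as 1 of 12 miRNAs, whereas the 5 calls of edgeR's exact test held 0 of the 9. The values of miR-192-5p and miR-194-5p were 1.47 (standard error 0.80) and 1.49 (standard error 0.66), and that of miR-203a-3p was 0.32 (standard error 0.45), all with an adjusted p of 0.977 in the quasi-likelihood test. With upper quartile factors both MCS libraries were above both 2D libraries for 8 of the 9 in DLD1 and 6 of the 9 in HT29, beside 45.4% and 17.9% of all tested miRNAs. The HT29 count depended on the scale, falling to 2, miR-192-5p and miR-215-5p, with library totals, where the share of all tested miRNAs was 11.0%.

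Set against these miRNAs within the same library, miR-375 did not keep one relation. In DLD1 its quotient to miR-192-5p, miR-194-5p and miR-203a-3p was lower in both MCS libraries, by -1.10, -0.89 and -0.80 on the log2 scale, and its quotient to miR-429 and miR-215-5p was higher, by 0.69 and 1.19. Its quotients to the other 4 overlapped between the cultures, with changes of -0.05 to 0.21, and these were miR-200a-3p, miR-200b-3p, miR-200c-3p and miR-141-3p. Over all 345 other miRNAs tested in DLD1 the quotient was higher for 80%, lower for 32 miRNAs and overlapping for 37. In HT29 the quotient was higher in both MCS libraries to 6 of the 9, the whole miR-200 family and miR-203a-3p, by 0.90 to 1.91. To miR-192-5p, miR-194-5p and miR-215-5p it overlapped, with changes of 0.35, 0.41 and -0.34. Over all 300 other miRNAs tested in HT29 it was higher for 79.7%, lower for 3 miRNAs and overlapping for 58.

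**Figure D4:**
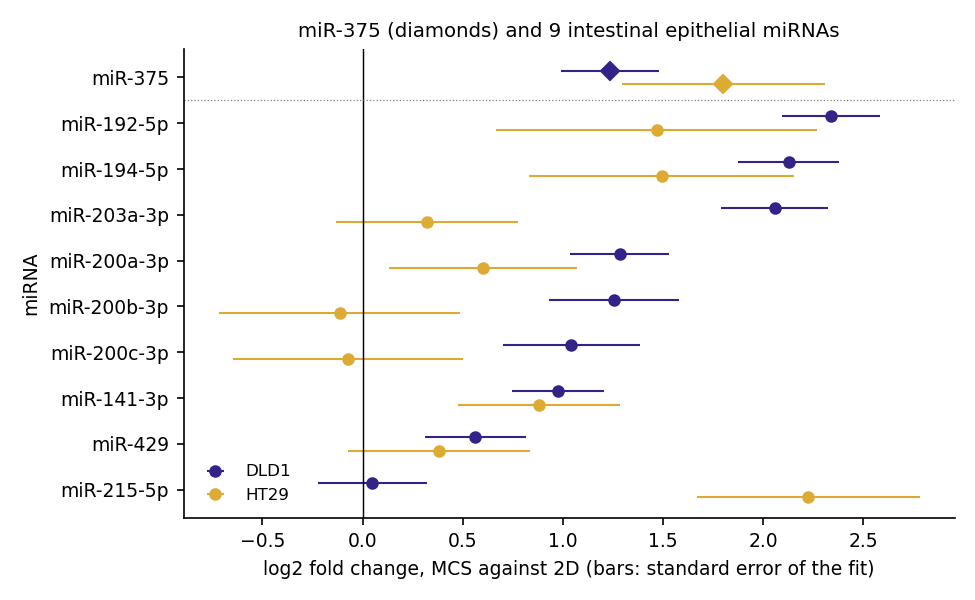
Fitted log2 fold change of MCS against 2D (x axis) with its standard error (bars) in DLD1 (violet) and HT29 (yellow). Diamonds are miR-375 and circles the 9 miRNAs of the epithelial list. In DLD1 miR-375 (1.24) lies beside miR-200a-3p (1.28) and miR-200b-3p (1.26), and in HT29 (1.80) between miR-194-5p (1.49) and miR-215-5p (2.23).

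The second list, also chosen with earlier results of these data known, holds 11 miRNAs known from islet, neuroendocrine or neural cells. In DLD1 6 of them reached a mean of 10 CPM, and 5 were called higher and 1 lower in MCS, beside 29.8% and 11.6% of all tested miRNAs. The largest was miR-9-5p, a neural miRNA, with 56.4 and 47.4 normalized CPM in 2D and 318 and 524 in MCS, a log2 fold change of 3.02 (standard error 0.26, adjusted p = 1.5e-26). For miR-95-3p the value was 2.96 (standard error 0.30, adjusted p = 1.01e-19). The other higher calls were members of one cluster, miR-182-5p (0.97), miR-183-5p (0.74) and miR-96-5p (0.62). miR-7-5p, an islet miRNA, was called lower, with 1699 and 1551 normalized CPM in 2D and 405 and 641 in MCS, a log2 fold change of -1.64 (standard error 0.23, adjusted p = 9.73e-11). The calls of miR-96-5p and miR-183-5p depended on the scale. With TMM factors, library totals, totals without miR-10a-5p, the reference miRNAs and DESeq2, neither was called, which left 3 higher and 1 lower, and RLE factors lost miR-96-5p. Fewer still were called with the upper quartile over tested miRNAs and without replicate 2 of DLD1 2D (miR-9-5p, miR-95-3p and miR-7-5p in both), and in a fit of all 8 libraries (miR-9-5p and miR-95-3p). In HT29 4 were tested and 0 were called by edgeR's quasi-likelihood test, its exact test or DESeq2, with 0 at an unadjusted p-value under 0.05. There miR-7-5p had 13521 and 6823 normalized CPM in 2D and 11494 and 6033 in MCS, and miR-9-5p stayed between 0.801 and 1.22 CPM of the library total. The remaining members, miR-124-3p, miR-127-3p, miR-129-5p, miR-153-3p and miR-184, were under 2 CPM in every library.

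A further 11 miRNAs mark muscle, mesenchyme, endothelium, blood or liver. In DLD1 they summed to 0.0131% and 0.00979% of the counts in 2D and 0.0149% and 0.0150% in MCS, and in HT29 to 0.00605% and 0.00846% in 2D against 0.0120% and 0.0225% in MCS. Their sum was thus higher in MCS together with miR-375 in both lines, and its part in the result was not tested. The members did not all rise. In DLD1 miR-142-3p, with 31.24 and 12.91 CPM in 2D against 55.12 and 42.17, and miR-1-3p were higher in both MCS libraries. There miR-126-3p overlapped, with 85.93 and 78.97 against 78.86 and 93.97, and miR-143-3p and miR-486-5p were lower in both. In HT29 miR-142-3p overlapped, with 5.812 and 43 CPM in 2D against 21.03 and 176.6 in MCS. Between 1 and 4 of the 11 were at 0 in a library, and those that reached 10 CPM in some library were miR-126-3p, miR-142-3p and miR-1-3p. The mesenchymal miR-143-3p and miR-145-5p were at most 7.40 and 1.01 CPM, and miR-122-5p, the hepatocyte miRNA, at most 0.880 CPM.

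The miRNAs whose profile lay nearest to that of miR-375 were found among 249 with a mean of at least 10 CPM in both lines, by the root mean square difference of log2(CPM + 1) with TMM factors over all 8 libraries, where the kit is shared within a line and the depth is not. With each profile centred on its own mean the nearest were miR-155-5p (0.43), miR-194-3p (0.50), miR-181a-2-3p (0.54), miR-26b-5p (0.56) and miR-203b-3p (0.56), against a median of 1.13 over the 249. With each profile centred within its cell line, so that the culture difference remained, they were miR-26b-5p (0.37), miR-378c (0.38), miR-155-5p (0.39), miR-141-3p (0.41) and miR-181a-2-3p (0.42), against a median of 0.84. As background, miR-155-5p is best known from immune cells, and miR-194-3p is the opposite arm of the gut miRNA miR-194-5p. The hairpin of miR-203b lies opposite that of miR-203a, and miR-378c has close relatives, so that the counts of both could hold reads of their neighbours. The nearest miRNA within the lines, miR-26b-5p, had 4654 and 5476 CPM in DLD1 2D and 8330.1 and 11164 in MCS. In HT29 it had 1539 and 1759.9 in 2D and 2632 and 3267 in MCS, on the same TMM scale. It thus resembled miR-375 in being higher in both MCS libraries of both lines, with smaller steps in HT29. The step of miR-155-5p in DLD1 was small, from 32.9 and 40.5 CPM in 2D to 42.8 and 50.3 in MCS. In HT29 miR-181a-2-3p overlapped between the cultures, with 13.3 and 26.9 in 2D and 34.6 and 24.7 in MCS. So did miR-203b-3p, with 42.5 and 26.9 against 75.3 and 30.2. The other nearest miRNAs were higher in both MCS libraries of both lines. For these and miR-26b-5p this follows in part from their choice by closeness to miR-375, itself chosen as higher in MCS. The share of the 249 that did the same was not computed.

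The miRNAs near miR-375 by both measures are shown to compare their seeds, in capitals, with that of miR-375 above. None of the 3 has its seed.
miR-155-5p: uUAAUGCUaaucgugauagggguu
miR-181a-2-3p: aCCACUGAccguugacuguacc
miR-26b-5p: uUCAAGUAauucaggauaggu

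**Figure D5:**
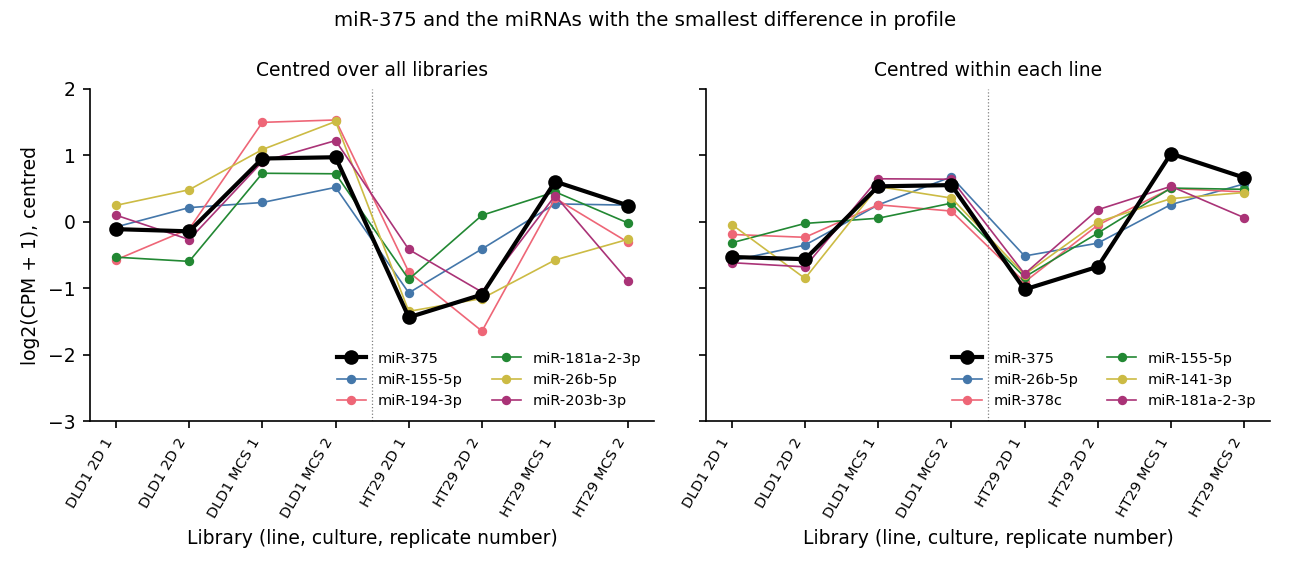
Log2(CPM + 1) with TMM factors (y axis) in the 8 libraries (x axis) for miR-375 (black) and the 5 miRNAs nearest to it, centred on each miRNA's mean (left) or on its mean within each cell line (right); lines join the libraries of 1 miRNA and imply no order. In the right panel the 2 MCS libraries of each line lie above the 2 of 2D for miR-375, whose steps are larger than those of its neighbours in HT29.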

How the data were processed

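The deposited values are raw counts of reads for each mature miRNA of miRBase, neither normalized nor pooled. To make them the authors clipped reads with Cutadapt, discarded short or poor ones, and mapped with Bowtie2, first to the genome (GRCh37) and next to the miRNA sequences. Of the entries, 15 named no miRNA and were left out. They held 2590 counts (0.00988%) in replicate 2 of HT29 2D and 0 elsewhere. All single-library values equalled those of the joint table.

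Counts were fitted in each cell line with edgeR 4.0.16 in R 4.3.3 by the quasi-likelihood test with culture as the single term. Tested miRNAs averaged 10 CPM or more by library totals. The upper quartile was taken over every miRNA with a count in the line. Benjamini-Hochberg adjustment covered all tested miRNAs. Whether replicates were separate cultures is known only from their labels as biological replicates. The p-values rest on the spread between 2 libraries per culture, which the fit shares in large part over all tested miRNAs. In DLD1 miR-1291, with 49.8 and 9.05 normalized CPM in 2D, had a standard error of 0.330. That of miR-1292-5p, with 29.08 and 29.05, was 0.332. Alternatives were other scalings, DESeq2 1.42.0, edgeR's exact test, other filters, the replicate number as a block, a joint fit of both lines and leaving out single libraries. miR-375 and the lists of miRNAs were chosen with earlier results of these data known. Named miRNAs are the list members, the nearest profiles and the neighbours in rank or fold change. Sequences come from RefSeq (GRCh38.p14) and positions from exact matches in GRCh37 with GENCODE release 44 lifted to it. The exact matching, ratios and figures used Python 3.11.15.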

Additional observations from a re-analysis of the deposited data

How the results depend on the processing

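The log2 fold change of miR-375 was above 0 in both cell lines under all 12 alternatives that kept every library and without each library in turn. In DLD1 it was 1.24 as reported, 1.03 with TMM factors, 0.87 with library totals, 0.78 with the upper quartile over tested miRNAs, 0.92 without the miR-10a-5p counts in the totals, 0.97 with 5 reference miRNAs and 1.00 with DESeq2, while the median of all tested miRNAs moved by -0.21, -0.37, -0.46, -0.32, -0.27 and -0.24. It ran from 1.06 to 1.18 with a library left out. In HT29 it ran from 1.60 to 1.88, and from 1.32 to 2.12 with a library left out. In those fits 1 culture had a single library, assumed to vary like the other.

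In DLD1 143 miRNAs were called, 72.0% of them higher in MCS, against 55.1% with TMM factors, 42.0% with library totals, 50.0% without miR-10a-5p, 49.6% with the reference miRNAs, 52.2% with DESeq2 and 34.5% with the upper quartile over tested miRNAs. All libraries in 1 fit called 31, of which 4 were epithelial and 2 endocrine. With a library left out the calls numbered 92 (without replicate 2 of 2D) to 124, the epithelial ones 4 to 8 and the endocrine ones 3 to 5, and the upper quartile over tested miRNAs called 3 of the endocrine list. In HT29 0 were called, against 12 with DESeq2, 5 with the exact test, 15 with no filter, 3 with all libraries in 1 fit and 0 to 2 with a library left out. Over the epithelial list DESeq2 called 1, miR-215-5p.

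With the replicate number as a block, 47 miRNAs were called in HT29, 3 of them epithelial (miR-192-5p, miR-194-5p and miR-215-5p), and the log2 fold change of miR-375 was 1.23 in DLD1 and 1.77 in HT29. Libraries share only a number, and the deviations of the 2 cultures' same-numbered libraries had a correlation of 0.32 over miRNAs in DLD1 and 0.79 in HT29. The 5 nearest profiles were the same with library totals by both measures. With 10 CPM added in place of 1, 4 of 5 were shared over all libraries and 3 of 5 within the lines.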
